A study of Rattus norvegicus with 24 samples.

Results

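The 10 genes described here encode the subunits of the AMPA receptor (Gria1, Gria2, Gria3 and Gria4) and of the NMDA receptor (Grin1, Grin2a, Grin2b, Grin2c, Grin2d and Grin3a), and they were chosen by name from 26641 named loci among 42334 loci in all. The genes were followed in 24 messenger RNA libraries of perilesional cortex and ipsilateral thalamus from adult male Sprague-Dawley rats, taken 3 months after lateral fluid-percussion injury (TBI) or a sham operation. Each of the 4 groups held 6 libraries, each from another rat, and both regions of a rat were sequenced. Sham rats had the anaesthesia and the surgery with craniectomy, as the TBI rats did, but no impact, and the TBI rats came from animals phenotyped by magnetic resonance imaging for chronic inflammation around the lesion, so that they stand for that form of chronic TBI. Both regions were dissected by hand from a single coronal slice and homogenised, so each library is a mixture of the cells of its region.

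Glutamate carries most fast excitatory transmission in the brain. AMPA receptors are tetramers of the Gria products that open within milliseconds of glutamate binding. NMDA receptors need the obligatory Grin1 product with Grin2 or Grin3 products. Those of Grin1 and Grin2 products bind glycine or D-serine as well as glutamate, are blocked by magnesium at rest and admit calcium. The subunit composition sets the kinetics and the calcium entry: the Gria2 product, once edited, makes an AMPA receptor nearly impermeable to calcium, Grin2a products give brief and Grin2b products longer NMDA currents, and Grin3a products lower calcium entry.

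Of the 10 genes, 8 had a locus under the name as spelled here and 2, Gria1 and Grin3a, under the same name in capitals. The Gria2, Gria3 and Gria4 loci each carry a second name that the annotation joins to them, so their values cannot be split. In the deposited annotation Gria1 lies at chr10:42257552-42573758, Gria2 at chr2:198988294-199112785, Gria3 at chrX:127655432-127922293 and Gria4 at chr8:1541137-2069792. The NMDA receptor genes lie at chr3:2487838-2516024 (Grin1), chr10:4523269-4946680 (Grin2a), chr4:233805147-234263705 (Grin2b), chr10:104479470-104498181 (Grin2c), chr1:102898983-102936265 (Grin2d) and chr5:69416928-69564698 (Grin3a). These are spans of whole loci, exons and introns together, in a build that the labels name as Rnor_5.0 and the methods only in part. The Grin1 locus overlaps 2 other named loci, of which the higher averaged 946 normalized counts over the 24 libraries against 14276 for Grin1. How strand was used in counting is not given in the sources used here.

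The promoters of Gria4 and Grin1, which both fell after TBI in the thalamus, and of Grin3a, which rose there, are shown for comparison as the 250 bases before the annotated start (RefSeq, GRCr8, 5′ to 3′), and capitals would mark any of 5 searched motifs.
Gria4 (chr8:10319882-10320131, minus strand): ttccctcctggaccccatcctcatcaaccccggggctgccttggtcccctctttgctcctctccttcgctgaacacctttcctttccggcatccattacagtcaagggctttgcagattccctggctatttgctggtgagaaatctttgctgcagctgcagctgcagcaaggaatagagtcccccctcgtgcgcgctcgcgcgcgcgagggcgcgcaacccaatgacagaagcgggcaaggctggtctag
Grin1 (chr3:28528755-28529004, minus strand): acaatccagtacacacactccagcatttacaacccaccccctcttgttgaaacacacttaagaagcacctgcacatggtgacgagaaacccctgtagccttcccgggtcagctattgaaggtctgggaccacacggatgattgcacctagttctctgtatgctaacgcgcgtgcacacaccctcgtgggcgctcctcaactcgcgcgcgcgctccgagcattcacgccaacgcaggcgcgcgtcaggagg
Grin3a (chr5:69001559-69001808, minus strand): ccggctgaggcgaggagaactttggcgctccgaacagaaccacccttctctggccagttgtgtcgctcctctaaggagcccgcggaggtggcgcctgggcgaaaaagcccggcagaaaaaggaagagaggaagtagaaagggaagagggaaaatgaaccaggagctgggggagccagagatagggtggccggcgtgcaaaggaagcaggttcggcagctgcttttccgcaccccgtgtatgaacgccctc
RefSeq promoters were matched for 5 of the 10 genes, namely Gria4, Grin1, Grin3a, Grin2c and Grin2d. For Gria1, Gria2, Gria3, Grin2a and Grin2b no promoter was matched. Neither strand of these 5 windows held a GC box (GGGCGG, in 30.5% of all 33469 promoters), a cyclic AMP response element (TGACGTCA, 1.59%), a TATA box (TATAAA, 12.9%) or either outer part of the neuron-restrictive silencer element (TTCAGCACC, 0.305%, and GGACAGCGC, 0.338%). The lack of a match says only that these letters are not in these windows. The windows were of like base composition, from 57.6% G and C in Grin1 to 60.4% in Grin2d and Grin3a, against a median of 51.2% over all promoters.

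Libraries held 30568927 to 54608922 fragments assigned to loci, as recovered from the values. Each subunit gene was covered by 261 to 35886 fragments in every library, the fewest for Grin2d in cortex. The part of counting error in the differences between rats was not computed. Values below are normalized counts, that is fragments divided by a size factor of the library. The coefficient of variation of a subunit gene within a group was at most 22.2%, with a median of 9.92%. As a check of the labelled regions, 8 of 8 thalamus neuron genes were higher and 7 of 8 cortex excitatory neuron genes lower in sham thalamus than in sham cortex. Choroid plexus genes summed to between 451 and 261495 normalized counts. Within their groups both libraries of TBI rat 45 were highest, at 32838 in cortex and 261495 in thalamus. The counts of changed subunits are therefore also given without that rat. Sham libraries reached 23849 in cortex (rat 26, group median 2685) and 107527 in thalamus (rat 50, group median 1095). These sham libraries were left out only singly, as every library was.

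The sham rats give the levels of these genes in the 2 regions without the impact. Relative to sham cortex, sham thalamus had lower messenger RNA of 6 subunits, with Gria2 furthest down, and higher messenger RNA of 3, with Grin2d furthest up, whereas Gria4 did not pass the test. Among all 15582 loci tested in this comparison 33.9% were higher and 28.3% lower in thalamus by limma with Benjamini-Hochberg adjustment at 0.05. Change between regions was thus common, and 3 of 10 subunits higher was near the background share. The share of all loci without overlap between the sham regions was not computed, so overlap below only describes each gene. Gria2 ranged from 6562 to 8886 in sham thalamus (median 7618) and from 28458 to 35656 in sham cortex (median 30942). The log2 difference was -2.01 (95% CI -2.17 to -1.86), without overlap between the regions. Gria1 (log2 difference -1.07), Gria3 (-1.46) and Grin2a (-1.41) were also lower in every thalamus library than in any cortex library. Grin1 and Grin2b were lower by less, at -0.20 (adjusted p = 0.0086) and -0.44 (adjusted p = 0.0061), and their regions overlapped. In the other direction, Grin2d, whose product gives slowly decaying currents and which is known from the diencephalon and from interneurons, ranged from 1537 to 1954 in sham thalamus against 281 to 403 in sham cortex, a log2 difference of 2.38 (95% CI 2.18 to 2.58). Grin2c, an NMDA receptor subunit also known from astrocytes, was higher by 0.95 and Grin3a by 0.69, both with no overlap. Gria4 had nearly equal levels, with medians of 6928 in thalamus and 6605 in cortex and a log2 difference of 0.05 (95% CI -0.11 to 0.21, adjusted p = 0.576).

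**Figure D1:**
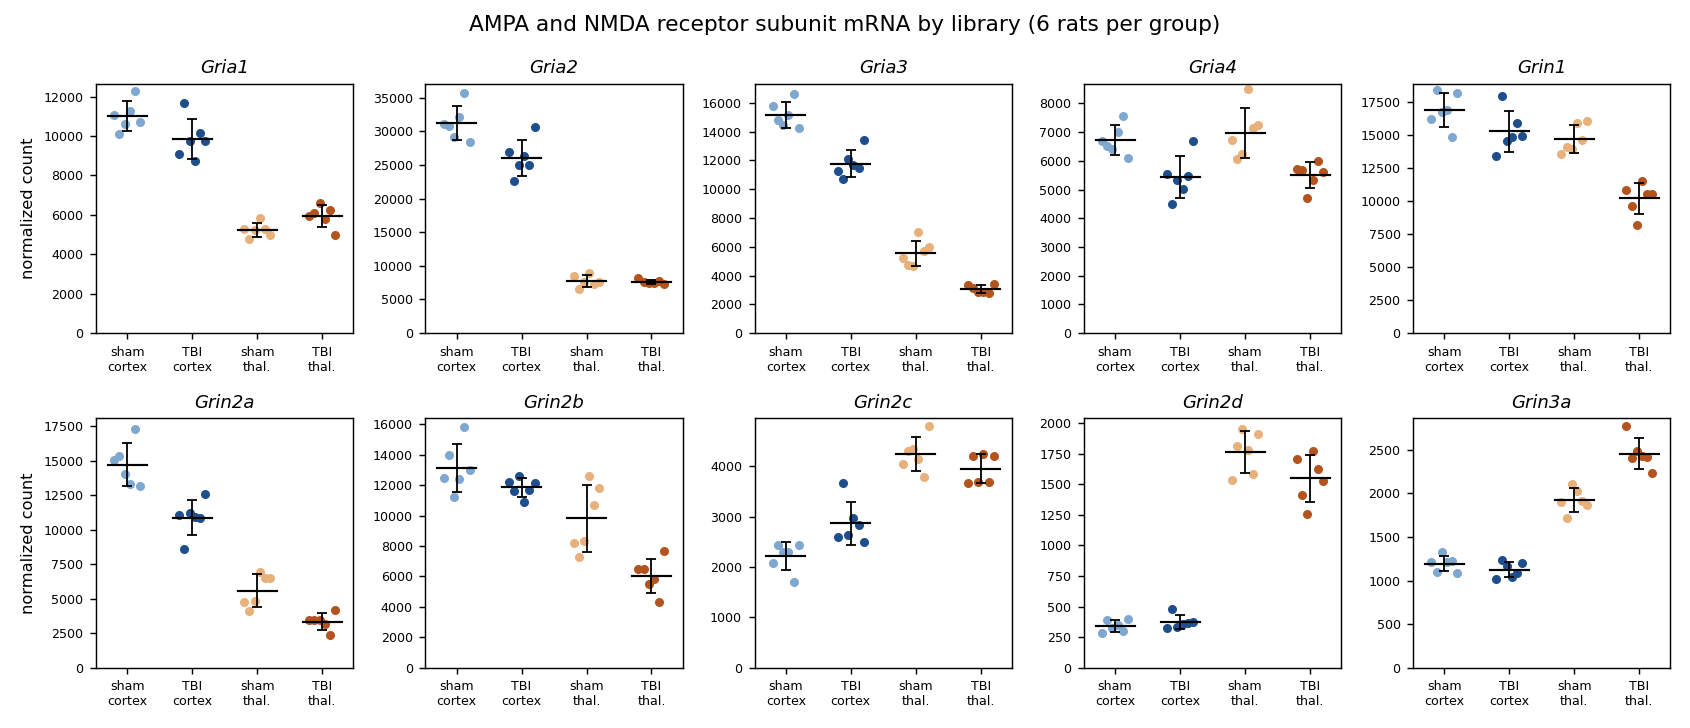
Normalized counts of the 10 subunit genes (y axes, linear from 0) in each of 6 libraries of the 4 groups (x axes), with the mean as a horizontal line and the SD as error bar. Gria3 in TBI thalamus sits between 2798 and 3442, below every sham thalamus library, and Grin3a in TBI thalamus between 2227 and 2771, above every sham one.

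In the perilesional cortex, TBI rats had less Gria2, Gria3, Gria4 and Grin2a messenger RNA and more Grin2c than sham rats, whereas Gria1, Grin1, Grin2b, Grin2d and Grin3a did not pass the test. Gria2 fell by 16.6%, the least of the 4, and Grin2a by 26.1%, the most, while Grin2c rose by 29.5%. The background was 14.3% of 15493 loci called higher and 14.9% called lower, against 1 and 4 of the 10 subunits. All 6 TBI libraries lay above all 6 sham libraries for 7.02% of loci and below them for 5.45%, and did so for 1 (Grin2c) and 2 (Gria3 and Grin2a) of the subunits. The median log2 difference over the 10 genes was -0.15, against -0.0096 over all loci tested. Without TBI rat 45 the counts were the same.

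Among the AMPA receptor genes, Gria3 ranged from 14276 to 16652 in sham cortex (median 14979) and from 10729.6 to 13412 in TBI cortex (median 11572). Every TBI library was below every sham library, and the log2 difference was -0.37 ± 0.056 (SE, n = 6 and 6, adjusted p = 0.000273 by limma). Gria2 ran from 28458 to 35656 (median 30942) in sham and from 22598 to 30673 (median 25668) in TBI cortex. Of the TBI libraries 5 were below all sham libraries and 1, of rat 63, was among them, with a log2 difference of -0.26 (95% CI -0.41 to -0.11, adjusted p = 0.0112). For Gria4, a subunit of fast receptors known from interneurons and thalamic neurons, the ranges were 6088 to 7568 (median 6605) in sham and 4486 to 6699 (median 5394) in TBI cortex. Rat 63 again gave the only TBI library within the sham range, and the log2 difference was -0.32 (95% CI -0.49 to -0.15, adjusted p = 0.00827). Gria1 gave 10122 to 12285 (median 10879) in sham and 8715 to 11657 (median 9751) in TBI cortex. Its log2 difference of -0.16 (95% CI -0.30 to -0.023) had an adjusted p of 0.075, and without TBI rat 24, its highest TBI library, it was -0.21 with an adjusted p of 0.0115.

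Of the NMDA receptor genes in cortex, Grin2a had the largest fall of the 10 genes. It ranged from 13161 to 17327 in sham (median 14557) and from 8603 to 12631 in TBI rats (median 10988). The groups did not overlap, and the log2 difference was -0.44 (95% CI -0.62 to -0.26, adjusted p = 0.00155). Its partner Grin2b, which dominates early in development, ran from 11192 to 15813 (median 12718) in sham and from 10883 to 12621 (median 11894) in TBI cortex, a difference of -0.14 (95% CI -0.29 to 0.0063, adjusted p = 0.139). Only 1 TBI library was below all sham libraries, and without sham rat 34 the difference of -0.19 passed narrowly, with an adjusted p of 0.0489. The obligatory Grin1 had a difference of -0.15 (adjusted p = 0.119), which without TBI rat 24 was -0.19 with an adjusted p of 0.0248. Grin2c went the other way, from 1711 to 2445 in sham (median 2297) to 2506 to 3669 in TBI cortex (median 2730.1). Every TBI library was above every sham library, with a log2 difference of 0.37 (95% CI 0.16 to 0.58, adjusted p = 0.0111). Grin2d (0.14, adjusted p = 0.374) and Grin3a (-0.084, adjusted p = 0.353) gave small differences whose intervals included 0.

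In the ipsilateral thalamus, Gria3, Gria4, Grin1, Grin2a and Grin2b messenger RNA was lower after TBI. Of these Gria4 fell by 20.9%, the least, and Gria3 by 44.1%, the most, and Grin3a was 27.7% higher. Gria1 was called higher by 13.1%, narrowly, and Gria2, Grin2c and Grin2d did not pass. Of 15564 loci 14.5% were called higher and 20.9% lower, against 2 and 5 of the subunits. The TBI libraries were all above the sham ones for 7.46% of loci and all below for 10.7%, and did so for 1 (Grin3a) and 3 (Gria3, Gria4 and Grin1) of the 10 genes. The share of lower calls among all called loci was 59.0% with the deposited scaling and 45.7% with TMM scaling, while the subunit calls were the same under both. The median log2 difference of the subunits was -0.26, against -0.023 over all loci. Without TBI rat 45, 1 gene was called higher (Grin3a) and 5 lower.

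Gria3 gave the largest fall. Sham thalamus ranged from 4664 to 6995 (median 5459.9) and TBI thalamus from 2798 to 3442 (median 3019). No TBI library reached the lowest sham library, and the log2 difference was -0.84 (95% CI -1.04 to -0.64, adjusted p = 1.35e-05). Gria4 ran from 6072 to 8489.8 (median 6928) in sham and from 4701 to 5982 (median 5647) in TBI thalamus. Its groups were apart by a narrow gap, with a log2 difference of -0.34 (95% CI -0.51 to -0.17, adjusted p = 0.00427). Gria2, by contrast, gave 6562 to 8886 (median 7618) in sham and 7323 to 8247 (median 7461) in TBI rats. All TBI libraries lay within the sham range, and the difference of -0.024 (95% CI -0.16 to 0.12, adjusted p = 0.811) changed sign with TMM or upper quartile scaling. Gria1 rose in median from 5276 (4771 to 5843) to 6011 (4977 to 6611). Of the TBI libraries 4 exceeded all sham ones, and the log2 difference was 0.18 (95% CI 0.036 to 0.32, adjusted p = 0.0497). The adjusted p went past 0.05 when any 1 of 10 of the 12 libraries was left out, up to 0.105, and stayed under it only without sham rat 38 or TBI rat 63.

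Grin1 had 13545 to 16096 normalized counts (median 14391.5) in sham thalamus and 8215 to 11520.2 (median 10536) in TBI thalamus. Each TBI library was below each sham library, with a log2 difference of -0.53 (95% CI -0.70 to -0.37, adjusted p = 0.00012). Grin2a ranged from 4082 to 6908 (median 5668) in sham and from 2347 to 4197 (median 3449.9) in TBI rats, and only the TBI library of rat 63 entered the sham range. The log2 difference was -0.74 (95% CI -1.05 to -0.42, adjusted p = 0.0014). Grin2b moved by nearly the same amount, from 7271 to 12589.5 (median 9522) in sham to 4317 to 7652 (median 6181) in TBI thalamus. Rat 63 was again the one overlapping TBI library, and the log2 difference was -0.69 (95% CI -1.01 to -0.37, adjusted p = 0.00262). For Grin3a, whose products bind glycine, sham thalamus ran from 1721 to 2109.6 (median 1903) and TBI thalamus from 2227 to 2771 (median 2421). All TBI libraries were above all sham libraries, and the log2 difference was 0.35 (95% CI 0.23 to 0.48, adjusted p = 0.000424). Grin2c (-0.10, 95% CI -0.23 to 0.031, adjusted p = 0.224) and Grin2d (-0.19, 95% CI -0.38 to -0.0052, adjusted p = 0.103) had differences that missed the threshold.

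**Figure D2:**
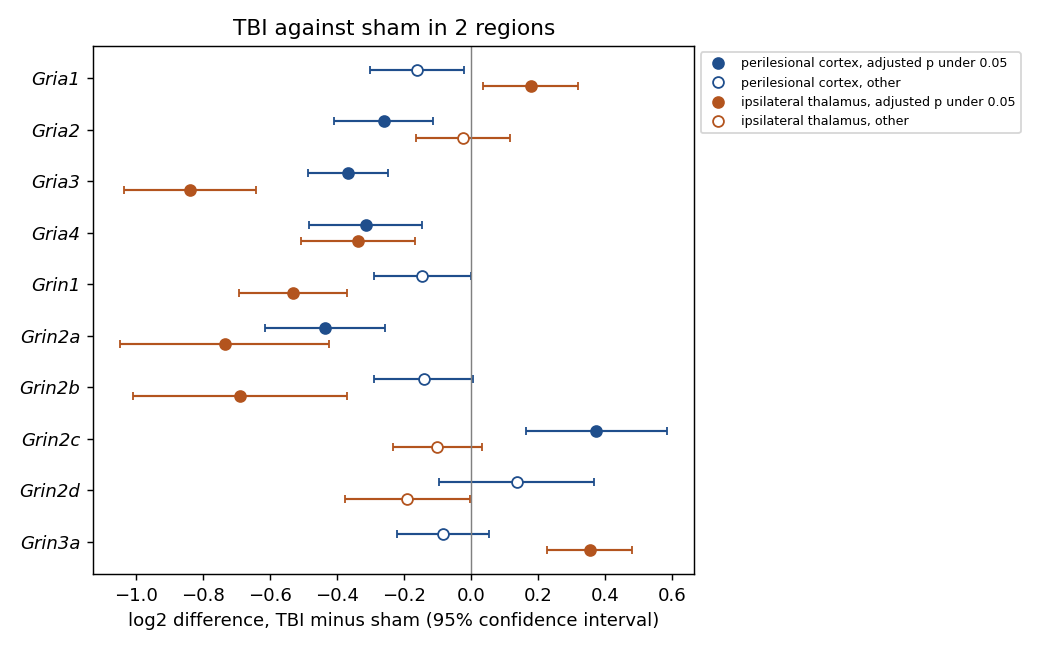
Log2 difference between TBI and sham rats (x axis) for the 10 subunit genes (y axis) in perilesional cortex (blue) and ipsilateral thalamus (orange), with unadjusted 95% confidence intervals, and filled where the adjusted p was under 0.05. Gria3, Gria4 and Grin2a lie to the left of 0 in both regions, Grin2c lies to the right at 0.37 in cortex only, and Grin3a at 0.35 in thalamus only among the filled points.

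Marker genes of several cell types also differed between TBI and sham rats, and fewer cells of a type and less RNA per cell cannot be told apart in such bulk samples. The background for the counts that follow is 14.3% of loci higher and 14.9% lower in cortex, and 14.5% and 20.9% in thalamus. Of 15 neuron markers, 11 were lower in TBI cortex (median log2 difference -0.27) and 12 in TBI thalamus (median -0.43). The number called higher was 0 in both by limma and edgeR, and also 0 at an unadjusted p under 0.05. The summed neuron markers ran from 479485 to 509079 in sham and from 354477 to 447112 in TBI cortex, and from 393270 to 456903 and 266099 to 339177 in the thalamus groups. The medians over the subunits, -0.15 and -0.26, mix falls and rises and were less negative than those of the neuron markers. Taken apart, they were -0.29 and -0.18 for the AMPA receptor genes and -0.11 and -0.36 for the NMDA receptor genes. In thalamus Gria3 (-0.84), Grin2a (-0.74), Grin2b (-0.69) and Grin1 (-0.53) fell by more than the neuron marker median. Gria4 (-0.34), Gria2, Grin2c and Grin2d did not, and Gria1 and Grin3a rose. Of 12 microglia markers, 11 in cortex and 12 in thalamus were higher, with sums from 13204 to 14345.5 in sham and from 19402 to 23433 in TBI cortex, and from 14709.9 to 19478 and 30344 to 39933 in thalamus. Astrocyte markers were higher for 5 and lower for 2 of 9 in cortex, and higher for 5 of 9 in thalamus. Their sums ran from 373808 to 394864 in sham and from 406792 to 451551 in TBI cortex, and in thalamus from 283942 to 315993 in sham and from 404328 to 465044 in TBI rats. In the cortex, the summed inhibitory neuron markers were 31121 to 33761.5 in sham and 23985 to 29228 after TBI, with 3 of 6 lower. Cortex excitatory identity genes summed there to 70966 to 75947 in sham and 62912 to 70032 after TBI, with 3 of 8 lower. In the thalamus, the summed inhibitory neuron markers were 22932 to 41246 in sham and 6660.2 to 17503 after TBI, with 5 of 6 lower. Thalamus neuron identity genes were lower for 6 of 8 there, summing to 97885 to 134072 in sham and 75833 to 94492 in TBI thalamus. The sums of the cortex excitatory identity genes in the thalamus were 13391 to 21351 in sham and 9046 to 12291 in TBI rats, with 3 of the 7 tested lower. The part of any of these marker lists in the subunit differences was not tested. Of 6 choroid plexus markers 0 were called in either region by limma or by edgeR, and 1 in cortex and 0 in thalamus had an unadjusted p under 0.05. The thalamus identity gene Gbx2 was at or under 3 fragments in all sham cortex libraries.

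An interaction term, fitted to the same 24 libraries as the regional comparisons, tested whether TBI had a different effect in thalamus than in cortex. Over 15678 loci the effect in thalamus was called higher than in cortex for 2.72% and lower for 4.54%, against 2 and 3 of the 10 genes. Grin3a differed by 0.44 (95% CI 0.26 to 0.62, adjusted p = 0.00304), with the rise in thalamus against -0.084 in cortex. Gria3 differed by -0.47 (95% CI -0.70 to -0.24, adjusted p = 0.011), its fall being larger in thalamus. Grin2c differed by -0.47 (95% CI -0.73 to -0.22, adjusted p = 0.0188), with its rise in cortex against -0.10 in thalamus. Grin1 differed by -0.39 (adjusted p = 0.0252) and Gria1 by 0.34 (adjusted p = 0.0306). Leaving out single libraries ended the Gria1 call in 6 of 24 cases (sham cortex 50, TBI cortex 52, sham thalamus 32 and 55, TBI thalamus 24 and 45), with an adjusted p of up to 0.0614, and the Grin1 call without sham cortex 50 (0.0514) or sham thalamus 55 (0.052). Without both libraries of rat 45 the adjusted p of Gria1 was 0.0685. Grin2b differed by -0.55 (95% CI -0.91 to -0.19) with an adjusted p of 0.0562, and of 0.04 with the rat as a block. Its call was gained without sham cortex 50 or without sham thalamus 26, 32 or 34 or TBI thalamus 63, at 0.0228 at the lowest. For Gria2 (0.24, adjusted p = 0.151), Grin2a (-0.30, adjusted p = 0.341), Grin2d (-0.33, adjusted p = 0.176) and Gria4 (-0.022, 95% CI -0.26 to 0.22, adjusted p = 0.939), no difference between the regions was detected.

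The balance between subunits was followed as ratios of normalized counts within a library, which cancel its scaling, and only their change between groups is read because transcript lengths differ. In the cortex the Grin2a to Grin2b ratio ran from 1.01 to 1.25 in sham rats (median 1.10) and from 0.742 to 1.04 in TBI rats (median 0.919). It was lower after TBI, with ranges that overlapped between 1.01 and 1.04, and the log2 difference was -0.29 (exact two-sided permutation test, p = 0.00433, adjusted p = 0.026 over 6 ratio tests). With a single library left out the adjusted p was 0.0519 in 10 of 12 cases, all but those without sham rat 55 or TBI rat 63. In the thalamus, where Grin2a and Grin2b both fell, their ratio was 0.549 to 0.607 in sham and 0.529 to 0.633 in TBI rats, and the log2 difference was -0.047 (exact permutation, adjusted p = 0.529). Without TBI rat 45 that difference was -0.085 with an adjusted p of 0.013. The Gria1 to Gria2 ratio in thalamus, which had a median of 0.674 in sham (0.623 to 0.727) and 0.794 in TBI rats (0.680 to 0.897), differed by 0.20 on the log2 scale but missed the threshold after adjustment (exact permutation, p = 0.0195, adjusted p = 0.0584). It passed without TBI rat 63, at 0.24 and an adjusted p of 0.039. In the cortex this ratio differed by 0.099 (exact permutation, adjusted p = 0.535), with SDs of 0.26 in TBI and 0.066 in sham rats. Grin2b to Grin1 differed by 0.0042 in cortex and by -0.16 in thalamus (exact permutation, adjusted p = 0.983 and 0.529). The smallest p that 6 against 6 libraries allow is 0.00216.

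**Figure D3:**
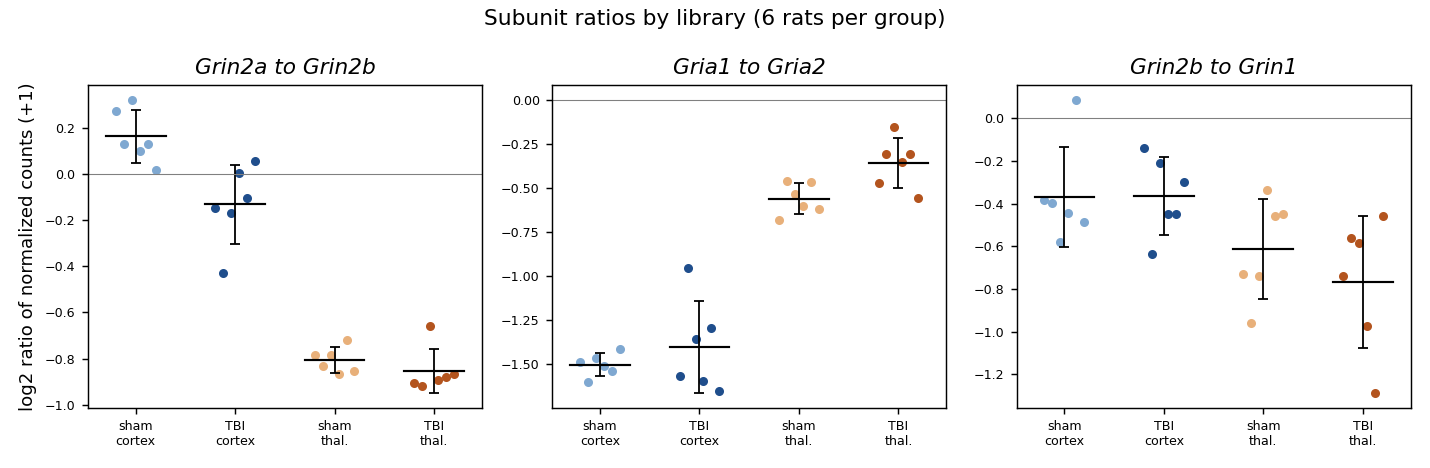
Log2 ratios of normalized counts (y axes) for Grin2a to Grin2b, Gria1 to Gria2 and Grin2b to Grin1 in each library of the 4 groups (x axes), with the mean as a line and the SD as error bar. Grin2a to Grin2b runs from -0.43 to 0.058 in TBI cortex against 0.020 to 0.32 in sham cortex.

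Some of the genes also varied together between the libraries of a group, which in all came from 12 rats. Deviations from the group means over the 24 libraries, whose values at each point come from 1 library and share its scaling, correlated most for Grin2a with Grin2b (Pearson's r = 0.88), Grin1 with Grin2d (0.84), Gria3 with Grin2a (0.83) and with Grin2b (0.80), and Gria2 with Gria4 (0.79). At the other end were Gria2 with Grin2c (-0.61) and Gria4 with Grin2c (-0.53). Single rats show it. In sham cortex, rat 50 had the highest value of 6 genes (Gria1 to Gria4, Grin2a and Grin2b) and the lowest of Grin1 and Grin2c, and in sham thalamus rat 38 had the highest value of the same 6. TBI rat 24 had the lowest Gria2, Gria3, Gria4 and Grin2a of its cortex group and the highest Gria1, Grin1, Grin2c, Grin2d and Grin3a. The deviations of Gria4 went with those of the summed neuron markers (r = 0.78) and thalamus neuron identity genes (0.77), and those of Grin2a and Grin2b with the cortex excitatory identity genes (both 0.71). Each r pools both regions, also the region where an identity list is low. Median sums of the thalamus list were 5344 in sham cortex and 113254 in sham thalamus, and those of the cortex list 74801 and 17288.5. Values of r within 1 region, and between other loci as a background, were not computed. With the neuron markers, r was -0.23 for Grin2c, -0.14 for Gria1, -0.0019 for Grin3a, 0.20 for Grin2d, 0.24 for Grin2b and 0.28 for Grin2a. It was 0.42 for Grin1, 0.48 for Gria2 and 0.55 for Gria3. With glial markers r had both signs. Negative values included Gria4 with oligodendrocyte precursor markers (-0.66) and Grin1 with astrocyte markers (-0.65). Gria1 with oligodendrocyte markers (-0.56) and Grin3a with astrocyte markers (-0.48) were also negative. Grin2c gave 0.36 with oligodendrocyte precursor markers, 0.23 with microglia markers and -0.12 with astrocyte markers. Values near 0 included Grin2a with astrocyte markers (-0.011) and Grin1 with oligodendrocyte precursor markers (0.013).

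**Figure D4:**
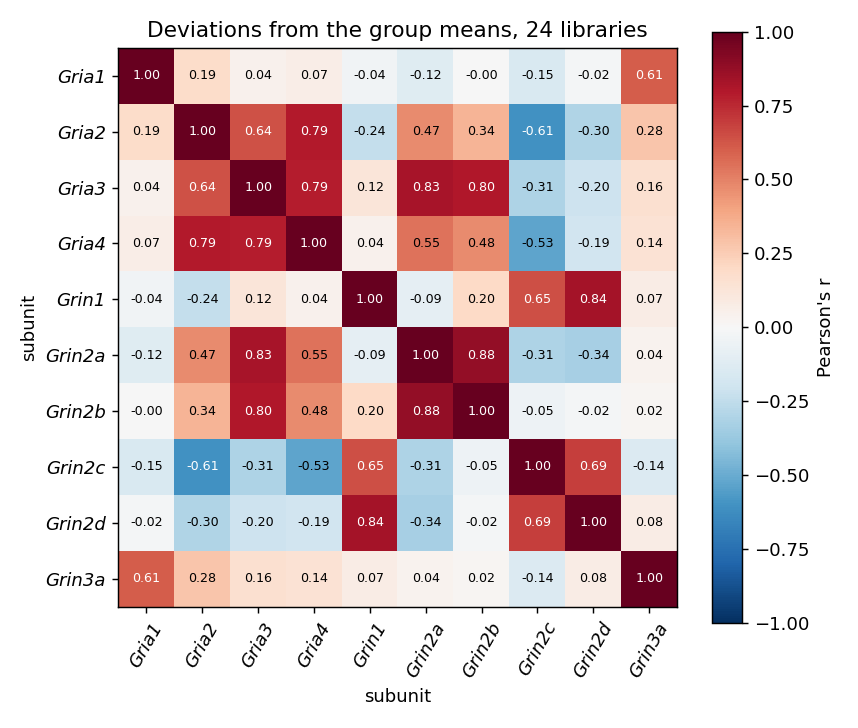
Pearson's r between the deviations of each pair of subunit genes from their group means over 24 libraries (colour and printed value, both axes list the 10 genes). Gria2, Gria3, Gria4, Grin2a and Grin2b form a block of positive values from 0.34 to 0.88, and Grin1, Grin2c and Grin2d another from 0.65 to 0.84.

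Over all 24 libraries, regions included, the named loci most like 9 of the genes among 13750 searched were found by Pearson's r, which takes in differences between regions, between TBI and sham and between rats. Among the AMPA receptor genes they were L3mbtl4 for Gria1 (r = 0.98), RGD1564053 for Gria2 (0.996) and Elmod1 for Gria3 (0.99). Among the NMDA receptor genes they were Pacsin1, which takes part in synaptic endocytosis, for Grin1 (0.98), PCDH7 for Grin2a (0.99), the diacylglycerol kinase gene Dgki for Grin2b (0.98), RGD1306058 for Grin2c (0.96), Xylt2 for Grin2d (0.99) and the Ncam1 locus for Grin3a (0.97).

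Genes whose products work with the receptors were described as lists, and the difference between the regions was not tested for a list. Of all loci 14.9% were lower in cortex and 20.9% in thalamus by limma on the deposited scaling, the background for the counts below. By edgeR the lower calls were closer, 2084 of 15493 loci in cortex and 2300 of 15564 in thalamus. AMPA receptor auxiliary and clustering proteins fell for 5 of 17 in cortex and 11 of 17 in thalamus, with medians of -0.11 and -0.29. In thalamus 9 were lower by edgeR and 10 without rat 45. The number that rose was 0 in both regions by limma, by edgeR and at an unadjusted p under 0.05. In cortex the largest fall was that of Nptx2, a secreted pentraxin that clusters AMPA receptors, from 2215 ± 259 to 1743 ± 394 (SD, log2 difference -0.37, adjusted p = 0.0429). In thalamus it was that of Cnih3, a cornichon that slows AMPA receptor gating, from 1542 ± 306 to 664 ± 113 (-1.21, adjusted p = 1.4e-05). Postsynaptic density scaffolds fell for 6 of 15 in cortex and 12 of 15 in thalamus (medians -0.099 and -0.44), and Homer3 was the only one to rise, by 0.58 and 0.51. The largest scaffold falls were those of Homer1 in cortex (-0.40, adjusted p = 0.0154) and Shank3 in thalamus (-0.73, adjusted p = 6.23e-05).

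Against the same background of 14.9% and 20.9% lower, receptor trafficking, kinase and editing genes fell for 8 of 17 in cortex and 12 of 17 in thalamus. The medians were -0.14 and -0.32, and 0 rose by limma, by edgeR or at an unadjusted p under 0.05. In thalamus 11 were lower by edgeR and 11 without rat 45. Ppp3cb, a catalytic subunit of calcineurin, gave the largest fall in cortex (-0.38, adjusted p = 0.0023) and Adarb2, a relative of the RNA editing enzymes, in thalamus (-0.93, adjusted p = 0.00046). Genes of glutamate release, clearance and co-agonist supply split, with 1 of 13 higher and 6 lower in cortex and 1 of 14 higher and 5 lower in thalamus, where edgeR called 3 lower. Without rat 45 the lower calls were 4 in each region. The vesicular glutamate transporter Slc17a6 fell most in cortex (-0.60, adjusted p = 0.00128) and Slc17a7 in thalamus (-1.05, adjusted p = 0.00064). Each is an identity gene of the other region, Slc17a6 of thalamus and Slc17a7 of cortex. Sham means of Slc17a6 were 1025 in cortex and 26174 in thalamus, and those of Slc17a7 were 49101 and 7827. Slc17a7 in cortex was not called (-0.13, limma adjusted p = 0.081), and Slc17a6 in thalamus differed by -0.21 (limma adjusted p = 0.0226). Slc6a9, a glycine transporter, rose in cortex by 0.24 (adjusted p = 0.00707). Dao, which degrades D-serine, rose in thalamus from 74.2 ± 11.4 to 344 ± 56.1 (4.59-fold, adjusted p = 4.76e-08), with all 6 TBI libraries at 276 to 413 against 60.2 to 91.6 in sham rats. Of the kainate, delta and remaining NMDA receptor genes, 1 of 8 was lower in cortex (Grik3, -0.28, adjusted p = 0.0243), near the background share, and 3 of 8 in thalamus (Grid1 most, -0.44, adjusted p = 2e-05). By edgeR 2 were lower and 1 was higher in thalamus, and 0 rose in either region by limma or at an unadjusted p under 0.05. The median difference over all loci was -0.0096 in cortex and -0.023 in thalamus.

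**Figure D5:**
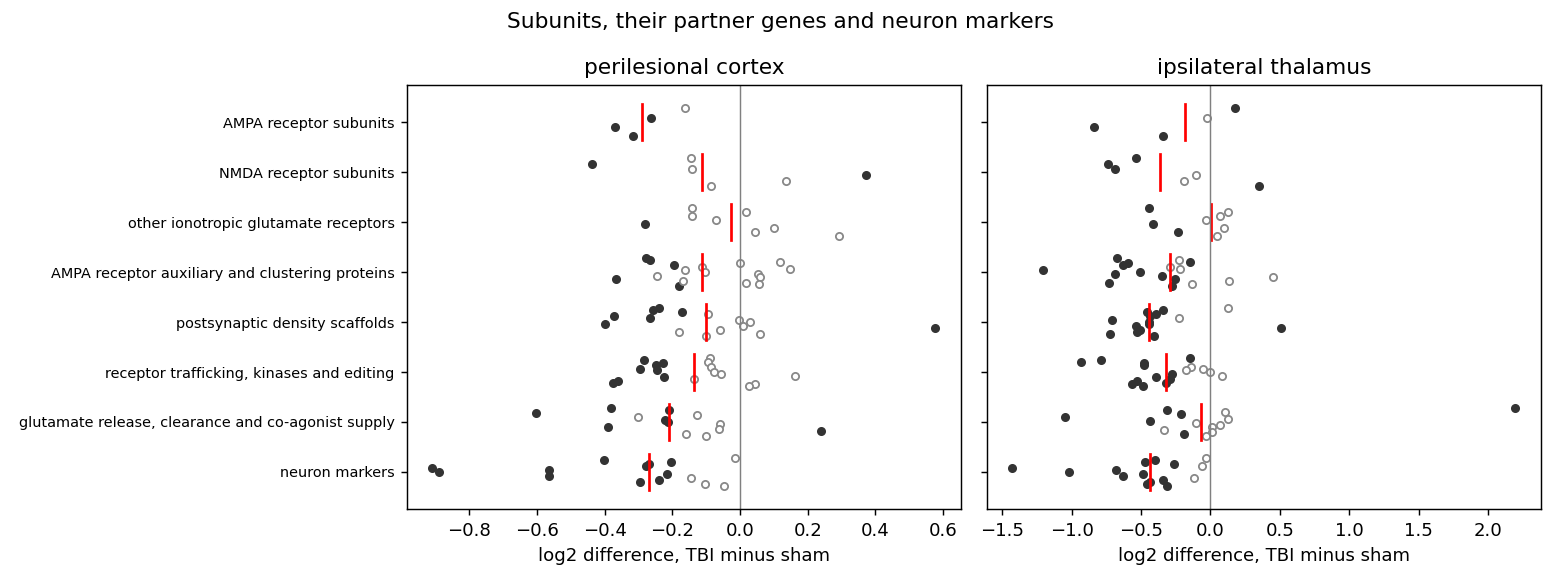
Log2 difference between TBI and sham rats (x axes, scaled separately for cortex and thalamus) for each gene of the subunit and partner gene lists and of the neuron markers (y axis), filled where the adjusted p was under 0.05, with the list median as a red line. In thalamus the scaffolds and the neuron markers share a median near -0.44 and -0.43, and Dao stands alone at the far right.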

How the data were processed

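Stranded kit libraries of polyadenylated RNA were sequenced by a service laboratory for the authors, with TopHat2 2.0.11, Bowtie2 2.2.2 and Cufflinks 2.2.1 for alignment and assembly. The labels name Rnor_5.0, and the methods name it for the annotation and an older build for the genome. The deposited table holds a signal per locus and library, a normalized count equal to the fragments divided by a size factor. Low values in each library fell on whole steps for 100% of loci (tolerance 0.1), and this step gave the fragments. All 24 columns were mapped to samples by their names and 0 were left over. Groups came from the labels.

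Loci with a gene name and a mean normalized count of 10 or more in the compared libraries were tested by limma 3.58.1 (lmFit and eBayes with a mean trend, R 4.3.3) on log2(normalized count + 1), with Benjamini-Hochberg adjustment over all loci tested and a threshold of 0.05. TBI was compared with sham in the libraries of each region, sham thalamus with sham cortex, and the TBI effect between regions as an interaction over all 24 libraries. Ratios were tested by an exact permutation of 924 splits with scipy 1.17.1. Names were matched without regard to case. The fits were tested on simulated data, where 95%, 92%, 96% and 87% of genes changed by 1 on the log2 scale were recovered in the cortex, thalamus, sham and interaction comparisons, and 73%, 74%, 78% and 67% of genes changed by 0.6. Smaller changes were not simulated.

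Both regions came from the same rat where the numbers match. Across loci, the paired libraries of a rat deviated together from the group means, with a median correlation of 0.187 in 12 rats (0.0039 to 0.569), and 10 were over 0.1. Named are every subunit, the largest rise and the largest fall past the threshold in each partner gene list and region, and the non-member with a mean of at least 50 most like each subunit, which for Gria4 is not reported here. The genes, lists and tests were chosen with earlier results of these data known. Alternatives were TMM and upper quartile scaling, other pseudocounts and filters, limma-voom, 1 fit over all libraries, the rat as a block and each library left out, and, chosen after seeing the data, edgeR 4.0.16 on the recovered fragments and leaving out rat 45.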

Additional observations from a re-analysis of the deposited data

Results flagged for a closer look

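In 40 sets of 6 libraries (10 genes in 4 groups), 1 library stood apart from its group by Dixon's criterion, which chance meets in about 1 in 20 groups. It was TBI rat 24 for Grin2d in cortex, at 479.9 normalized counts, with a gap to the nearest library of 0.684 of the group's range (critical value 0.625). The TBI effect differed between the regions by a tested interaction for 5 genes. On the log2 scale, thalamus minus cortex, the differences were 0.34 for Gria1, -0.47 for Gria3, -0.39 for Grin1, -0.47 for Grin2c and 0.44 for Grin3a, with limma adjusted p of 0.0306, 0.011, 0.0252, 0.0188 and 0.00304. Of these, Gria1 and Grin1 lost the call when some single libraries were left out, and Gria3, Grin2c and Grin3a kept it in each of the 24 cases.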

How the results depend on the processing

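Over 40 subunit results and their alternatives, 946 of 990 values kept direction and side of the threshold, 22 lost the call, 9 gained it and 13 changed sign. The called falls of Gria3, Gria4 and Grin2a in both regions, of Gria2 in cortex and of Grin1 and Grin2b in thalamus, and the rises of Grin2c in cortex and Grin3a in thalamus, held under every alternative run. The count of subunits called higher in thalamus was 2, and 1 with no filter on low values, with limma-voom or without rat 45, and 1 to 2 with single libraries left out, the lost gene being Gria1. For the interaction that count was 1 without rat 45 and 1 to 2 with single libraries left out. Sign changes were those of small differences. Gria2 in thalamus was 0.025 with TMM, 0.016 with upper quartile scaling, 0.022 with edgeR and -0.071 to 0.017 without single libraries. Gria4 was -0.0076 to 0.089 between sham regions, and its interaction was 0.0034 with upper quartile scaling, 0.0067 with edgeR, 0.019 without rat 45 and -0.075 to 0.041 without single libraries.

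With the rat as a replicate block, the interaction counts were 2 higher and 4 lower, Grin2b joining at -0.55, and the block changed no other subunit call. Without single libraries the log2 differences of the ratios were -0.33 to -0.23 for Grin2a to Grin2b in cortex, -0.085 to -0.029 in thalamus, 0.16 to 0.24 for Gria1 to Gria2 in thalamus and -0.041 to 0.095 for Grin2b to Grin1 in cortex. Over all loci edgeR on the recovered fragments called 2351 higher and 2084 lower in cortex and 2822 and 2300 in thalamus, and limma on the deposited values 2223 and 2308, and 2259 and 3257. The share of lower calls for the interaction was 62.5%, and 48.1% with edgeR. The cause of these shifts was not tested. The subunits had at least 261 fragments in each library.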
